A study of Mus musculus with 11 samples.

Results

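The GIMAP genes examined here are Gimap1, Gimap3, Gimap4, Gimap5, Gimap6, Gimap7, Gimap8 and Gimap9, taken by gene symbol. All 8 were measured, by 11 probe sets, among 18193 genes tested, and each gene was read from its brightest probe set unless another is named. The series holds 11 Affymetrix arrays, 1 per sample of CD4 T cells. They were taken out of the spleen and lymph nodes of mice 6 to 8 weeks old, enriched with a CD4 positive selection kit and sorted for GFP in 2 rounds. The GFPKO group (n = 3) holds GFP+ CD4 T cells of Foxp3GFPKO/WT mice, which carry a wild-type allele of the X-linked Foxp3 gene beside the GFPKO allele. The letters KO in the allele's name stand for knock-out, and the sort took the cells with GFP, the marker in that name. Whether these cells also read the wild-type allele or made working Foxp3 protein was not measured. The Treg group (n = 5) is labelled Foxp3-positive, Foxp3 being the transcription factor of regulatory T cells, and the TN group (n = 3) naive and Foxp3-negative. Neither the strain nor the genotype of the Treg and TN mice is in the labels. Whether replicates were different mice is not stated either, so the p-values reflect the variation among these arrays, part of which may be technical.

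GIMAP proteins (GTPases of immunity-associated proteins) bind GTP through a domain shared by the family, are found mainly in lymphocytes, and several sit on intracellular membranes. They are known for their part in lymphocyte survival. Loss of Gimap5 leaves rats and mice with few T cells, loss of Gimap1 in mice depletes mature T and B cells, and Gimap6 binds a member of the Atg8 family that acts in autophagy. In the mouse the genes lie side by side on chromosome 6, in the order Gimap8, Gimap9, Gimap4, Gimap6, Gimap7, Gimap1, Gimap5 and Gimap3 in RefSeq.

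Gimap7 was called higher in Treg than in TN, and its neighbour Gimap6 was called lower there on its dimmer probe set only (below). The 250 bases before the start of each are therefore shown. RefSeq (GRCm38.p6) reads Gimap6 on the minus strand (chr6:48708245-48708494) and Gimap7 on the plus strand (chr6:48718371-48718620), with 10377 bases between their starts. Capitals mark the letters TGTTT (a forkhead core), TGTGGT (a Runx core) and GGAAGT (a longer form of the Ets core GGAA) on either strand.
Gimap7: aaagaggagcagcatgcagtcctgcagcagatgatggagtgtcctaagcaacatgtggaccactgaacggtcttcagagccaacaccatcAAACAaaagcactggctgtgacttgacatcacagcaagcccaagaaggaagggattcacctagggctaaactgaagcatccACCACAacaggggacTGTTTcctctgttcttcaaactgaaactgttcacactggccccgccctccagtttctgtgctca
Gimap6: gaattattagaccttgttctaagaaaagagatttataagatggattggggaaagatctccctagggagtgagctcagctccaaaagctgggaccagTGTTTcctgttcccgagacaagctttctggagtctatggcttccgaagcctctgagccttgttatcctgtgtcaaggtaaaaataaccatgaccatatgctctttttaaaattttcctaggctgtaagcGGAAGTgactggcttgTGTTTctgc
Gimap7 held 2 forkhead cores and 1 Runx core, and Gimap6 held 2 forkhead cores and 1 GGAAGT match. The shorter letters GGAA were not marked, and the windows of both genes hold them. Of the 8 genes, all found in the promoter table, 6 had the forkhead core, 3 the Runx core and 2 the letters GGAAGT in such a window. Counted by window, 7, 3 and 2 of the 9 windows of these genes had them. Of all 32851 windows of this length 46.4%, 14.0% and 19.7% had them. The longer forkhead letters TGTTTAC, which contain TGTTT, were found before Gimap3 only, and in 3.17% of all windows. A match describes the letters and does not show a bound site.

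The sort was checked first. The Foxp3 probe set read 6.75 to 7.19 on the log2 scale in GFPKO, 3.29 to 3.64 in Treg and 3.12 to 3.99 in TN. The Treg values go against the label. The GFPKO values are RNA signal and do not show that working Foxp3 protein was made. Which part of the transcript the probe set reads is unknown, so Treg means the arrays labelled Treg here and each direction rests on that label. The highest TN value of Foxp3, 3.99, served as the background level. All 9 CD4 T cell markers measured were above it in each group. Xist, the RNA of the inactive X chromosome, read 11.07 to 11.85 in GFPKO, 3.49 to 3.96 in Treg and 3.72 to 3.84 in TN, so in every comparison with GFPKO sex and genotype cannot be told apart. The 3′ minus 5′ actin control signal, which reads RNA integrity, was 0.45 to 0.83 in GFPKO, 0.44 to 0.61 in Treg and 0.38 to 0.53 in TN, and GFPKO replicates 1 (0.77) and 2 (0.83) lay above every Treg and TN array.

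All 8 GIMAP genes were above background on every array, against 56.2% of all genes. Their probe sets read between 6.05 and 12.99. The 3 comparisons made below share arrays, so their values are given side by side and are not independent. Treg cells had more Gimap7 RNA than TN cells, by nearly the same amount on both of its probe sets. Gimap6 was lower in Treg on its dimmer probe set, and Gimap1, Gimap3, Gimap4, Gimap5, Gimap8 and Gimap9 passed the test in no comparison. In such bulk samples fewer cells of a type and less RNA per cell cannot be told apart. GIMAP genes are close relatives, and whether a probe set reads more than 1 of them was not tested.

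**Figure D1:**
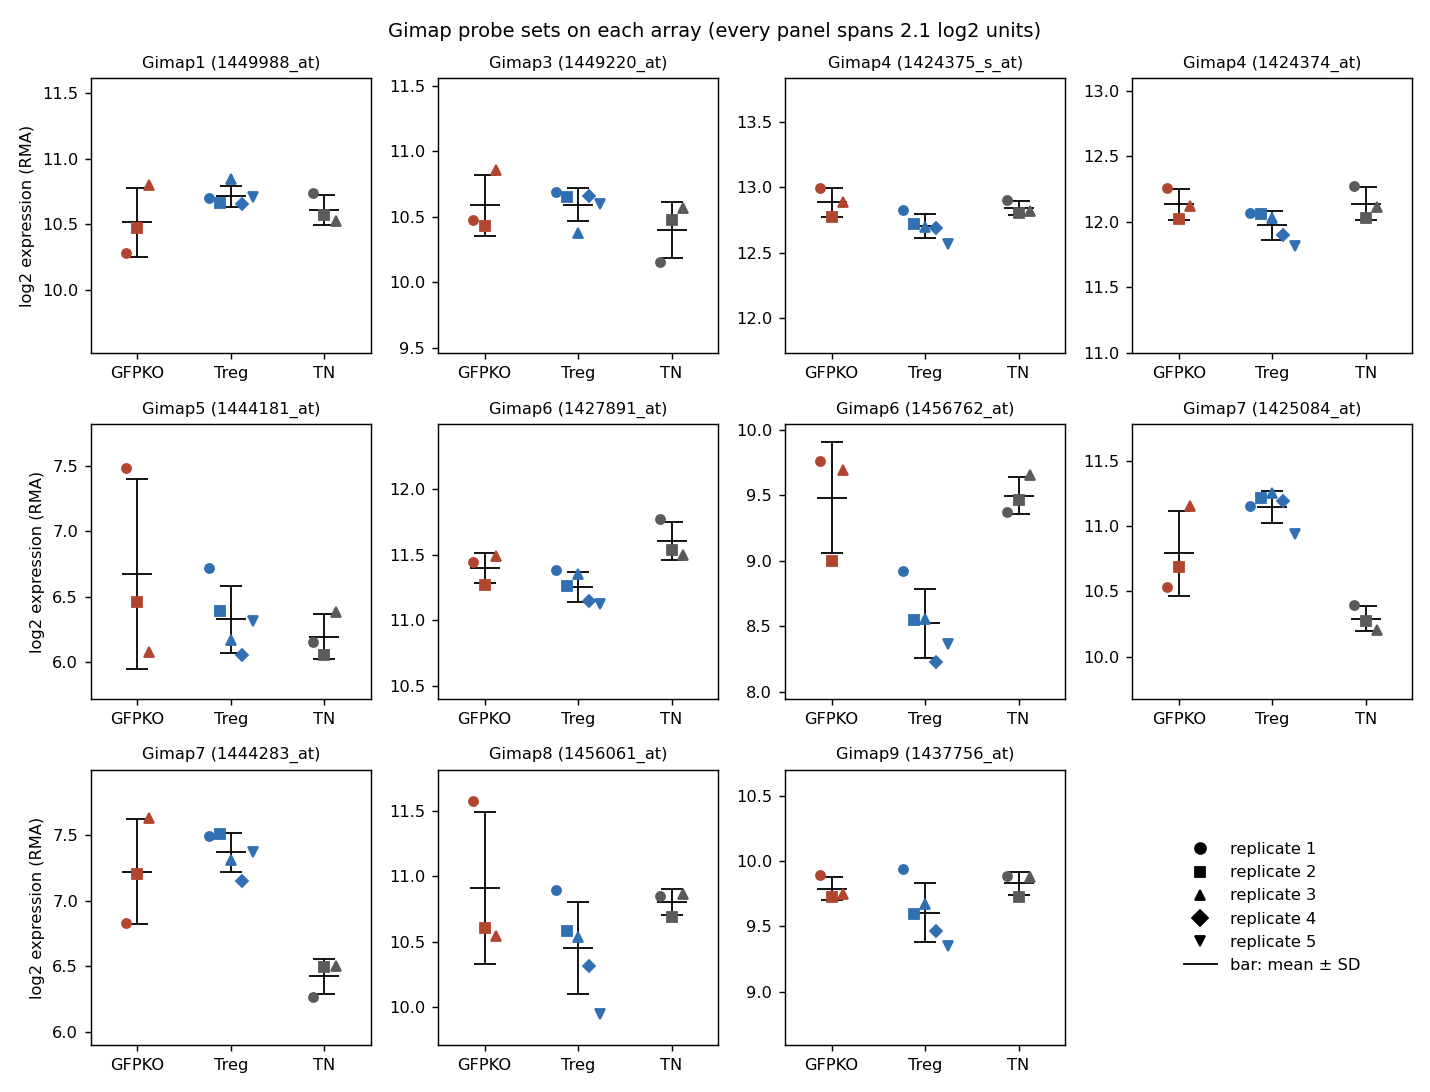
Log2 expression (RMA, y axis) of each of the 11 GIMAP probe sets on every array, with GFPKO, Treg and TN from left to right; symbols give the replicate and bars the mean ± SD. Both Gimap7 probe sets are higher in each Treg array than in any TN array, the second Gimap6 probe set is lower in each Treg array than in any other array, and GFPKO replicate 1 is the highest array for Gimap5 and Gimap8.

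Gimap7 encodes a GIMAP protein that, in studies of the human protein, hydrolyses GTP in dimers. Its brighter probe set read 10.53, 10.69 and 11.15 in GFPKO, 11.15, 11.21, 11.25, 11.19 and 10.94 in Treg, and 10.40, 10.27 and 10.21 in TN. No Treg array overlapped a TN array, and GFPKO lay above all TN arrays, with replicate 3 among the Treg values and replicates 1 and 2 below them. Group means were 10.79 ± 0.32 in GFPKO (SD, n = 3), 11.15 ± 0.12 in Treg (n = 5) and 10.29 ± 0.10 in TN (n = 3). Gimap7 was thus 1.81-fold higher in Treg than in TN (log2 fold change 0.86 ± 0.14 SE, 95% interval 0.55 to 1.16, limma adjusted p = 6.77e-04). The exact two-sided permutation test gave p = 0.0179, the smallest that 5 arrays against 3 allow. Gimap7 was the single member called in Treg minus TN, where 9.97% of all genes were called, 6.54% higher and 3.42% lower.

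The dimmer Gimap7 probe set read 6.83, 7.20 and 7.63 in GFPKO, 7.49, 7.51, 7.31, 7.15 and 7.38 in Treg, and 6.27, 6.50 and 6.50 in TN. It too separated Treg from TN without overlap, and here all GFPKO arrays lay above TN, with 2 of them inside or above the Treg range. The log2 fold change of Treg minus TN was 0.95 ± 0.16 SE (adjusted p = 0.0014 in the limma fit of all 34945 probe sets, of which 7.99% were called). In Treg minus TN the 2 probe sets differed by 0.09 in their log2 fold change (exact permutation p = 0.536).

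Markers of other cells moved with the groups as well. Of 7 NK cell markers 3 were called lower and none higher in Treg minus TN, where 3.42% of all genes were called lower. The summed level of the NK markers was 7.44 to 8.09 in GFPKO, 8.56 to 8.91 in Treg and 9.80 to 10.08 in TN on the log2 scale. Of 13 myeloid and dendritic markers 6 were called lower and 1 higher in Treg, with summed levels of 9.49 to 10.07 in GFPKO, 10.04 to 10.54 in Treg and 10.18 to 10.54 in TN. Klrd1, an NK receptor chain, averaged 3.96 in GFPKO, 3.15 in Treg and 8.83 in TN. Prf1 (perforin), Tyrobp, an adaptor of myeloid and NK cells, and Ly86 had log2 fold changes of -2.21, -3.31 and -1.90 for Treg minus TN, and Lyz2 was higher by 1.43. In GFPKO minus TN 4 NK and 6 myeloid markers were called lower and none higher, where 3.02% of all genes were called lower. At or below background in GFPKO, Treg and TN were 8, 7 and 2 of the 13 myeloid markers and 3, 3 and 2 of the 7 NK markers. Endothelial markers were at or below background in 5 of 8 genes in each group.

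B cell markers, of which 6 of 9 were at or below background in each group, had summed levels of 7.10 to 7.53 in GFPKO, 8.29 to 8.60 in Treg and 7.32 to 7.46 in TN on the log2 scale. Cd79b, a chain of the B cell receptor complex, averaged 6.01 in GFPKO, 7.63 in Treg and 4.36 in TN, the same order of groups as Gimap7, and was called in Treg minus TN (3.27), GFPKO minus TN (1.65) and GFPKO minus Treg (-1.61). No other B cell marker was called higher in any comparison. Cd79a averaged 3.36 in GFPKO, 3.79 in Treg and 3.76 in TN, below background, and was not called. Ms4a1 was called lower in Treg minus TN (-0.87) and GFPKO minus TN (-1.22), and Cd22 in GFPKO minus TN (-1.02) and GFPKO minus Treg (-0.94). Of the CD8 T cell markers Cd8b1 was called lower in GFPKO minus TN (-0.62). In GFPKO minus Treg the NK markers Nkg7 (-1.59) and Gzma (-0.74) were called lower and Klrd1 (0.81) higher, and no myeloid marker was called. No endothelial or erythroid and platelet marker was called in any comparison. The part of other cells in the GIMAP differences was not tested.

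**Figure D2:**
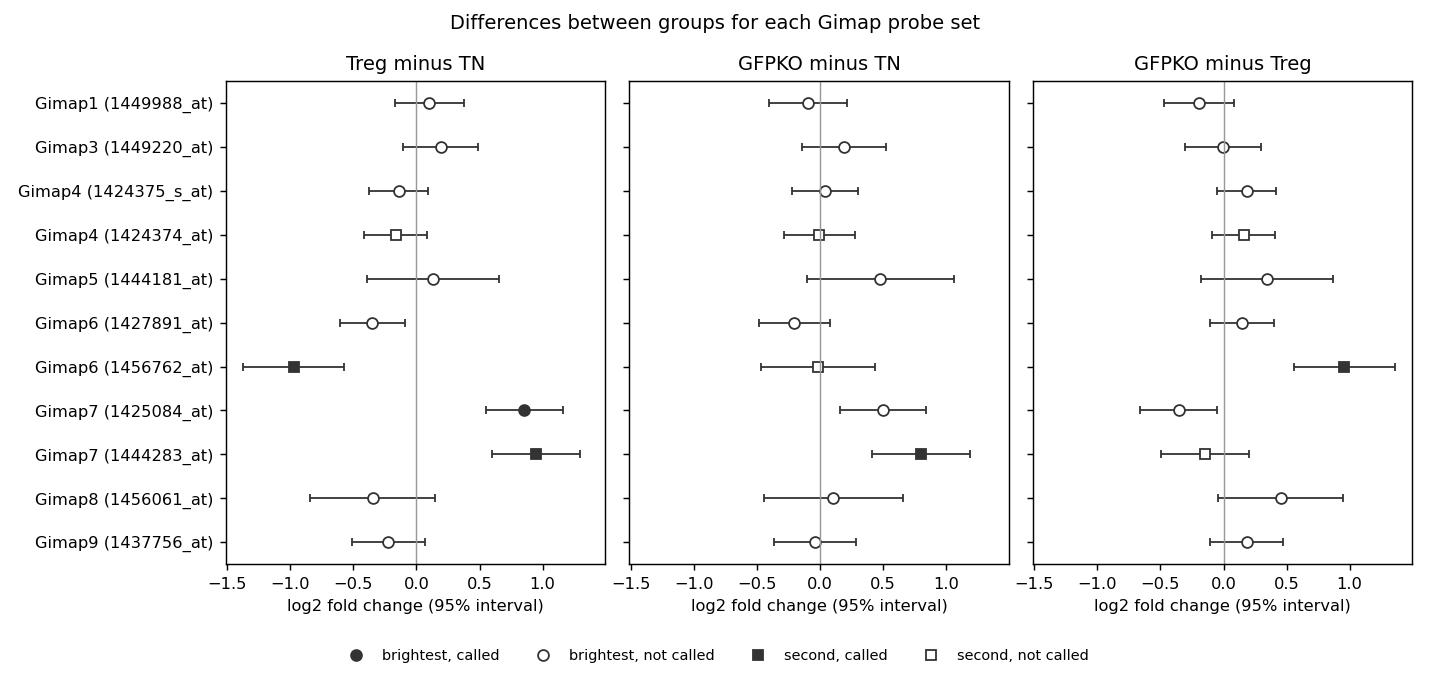
Log2 fold change (x axis, with 95% intervals from limma) of the 11 GIMAP probe sets in the 3 comparisons; circles are the brightest probe set of a gene, squares the second, and filled symbols have an adjusted p under 0.05. Filled are both Gimap7 probe sets and the second Gimap6 probe set in Treg minus TN, the second Gimap7 probe set in GFPKO minus TN and the second Gimap6 probe set in GFPKO minus Treg.

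Gimap6, the member that binds an Atg8 protein, had 2 probe sets that differed in size of change. The brighter one read 11.44, 11.27 and 11.49 in GFPKO, 11.38, 11.26, 11.35, 11.15 and 11.12 in Treg, and 11.77, 11.54 and 11.50 in TN. Both GFPKO and Treg lay wholly below TN, by a small margin, and overlapped each other. For Treg minus TN the log2 fold change was -0.35 ± 0.12 SE (adjusted p = 0.087, not called), and for GFPKO minus TN it was -0.20 ± 0.13 SE (adjusted p = 0.524). In Treg minus TN 2 members had groups that did not overlap, Gimap6 and Gimap7, as had 19.5% of all genes. The same 2 members did not overlap in GFPKO minus TN, where 18.0% of all genes did not.

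The dimmer Gimap6 probe set read 9.76, 8.996 and 9.69 in GFPKO, 8.93, 8.55, 8.55, 8.23 and 8.36 in Treg, and 9.38, 9.46 and 9.65 in TN. Every Treg array lay below every GFPKO and every TN array, and GFPKO overlapped TN. The closest were GFPKO replicate 2 and Treg replicate 1. Group means were 9.48 ± 0.42 in GFPKO (SD, n = 3), 8.52 ± 0.26 in Treg (n = 5) and 9.50 ± 0.14 in TN (n = 3). The probe set was 1.96-fold lower in Treg than in TN (log2 fold change -0.97 ± 0.19 SE, limma adjusted p = 0.0035 over all probe sets). GFPKO was 1.94-fold higher than Treg on it (0.96 ± 0.19 SE, adjusted p = 0.0059), and 8.60% of all probe sets were called in that comparison. GFPKO minus TN was -0.01 ± 0.21 SE (adjusted p = 0.989, 95% interval -0.46 to 0.44).

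Within an array the dimmer minus the brighter Gimap6 probe set averaged -1.92 in GFPKO, -2.73 in Treg and -2.11 in TN on the log2 scale. That gap was wider in each Treg array than in any other array (exact permutation p = 0.0179 against TN and against GFPKO, the smallest allowed). Adjusted over the 3 genes with 2 probe sets, Gimap4, Gimap6 and Gimap7, both exact permutation p-values come to 0.0536 by the Benjamini-Hochberg method. With Gimap6 alone at the smallest exact p, the adjusted value could not be lower, so this test cannot decide at 0.05. On these arrays the Gimap6 difference was larger on the dimmer probe set. Which parts of the transcript the 2 probe sets read is not given in the sources used here. Averaging both probe sets gave a log2 fold change of -0.66 for Treg minus TN (adjusted p = 0.0040) and 0.55 for GFPKO minus Treg (adjusted p = 0.0177), and the brighter probe set alone was called in Treg minus TN with an intensity trend and robust variance (adjusted p = 0.0315).

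GFPKO differed from TN in no GIMAP gene called on its brightest probe set, where 5.66% of all genes were called, 2.64% higher and 3.02% lower. Of the 8 members Gimap7 had the lowest p (rank 1401 of 18193 genes) and a log2 fold change of 0.50 ± 0.16 SE (adjusted p = 0.090). It was called without GFPKO replicate 1 (0.63, adjusted p = 0.0293), with both probe sets averaged (0.65, adjusted p = 0.0197), with the actin difference as a covariate (0.74, adjusted p = 0.0248) and with an intensity trend (0.50, adjusted p = 0.0493), and it was 0.32 without GFPKO replicate 3 (adjusted p = 0.187). Its dimmer probe set was called (0.80 ± 0.18 SE, adjusted p = 0.0206 over all probe sets, of which 4.07% were called). That call was lost without TN replicate 1 (adjusted p = 0.109), TN replicate 2 (0.059) or GFPKO replicate 2 (0.068), and in a fit of GFPKO and TN alone (0.116). An exact test of 3 arrays against 3 cannot go below p = 0.10, which both Gimap7 probe sets reached.

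GFPKO minus Treg likewise called no GIMAP gene on its brightest probe set, with 9.43% of all genes called, 2.55% higher and 6.88% lower. Of the 8 members Gimap7 again had the lowest p (rank 3123 of 18193 genes). Gimap7 had a log2 fold change of -0.36 ± 0.14 SE (adjusted p = 0.142), which was -0.54 without GFPKO replicate 3 (adjusted p = 0.0107) and -0.23 without GFPKO replicate 1 (adjusted p = 0.464). In none of the 8 genes were the GFPKO and Treg arrays separated, while 14.4% of all genes had groups that did not overlap. On its brighter probe set Gimap7 thus ordered Treg, GFPKO and TN from high to low, and of the neighbours in that order neither Treg and GFPKO nor GFPKO and TN differed by the test.

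The survival genes Gimap5 and Gimap1 were not called in any comparison. Gimap5, by its single probe set, read 7.48, 6.46 and 6.08 in GFPKO, 6.71, 6.39, 6.16, 6.05 and 6.31 in Treg, and 6.15, 6.05 and 6.38 in TN. GFPKO replicate 1 stood above every other array, and without it GFPKO minus TN was 0.075 in place of 0.48 ± 0.27 SE and GFPKO minus Treg -0.057 in place of 0.35 ± 0.24 SE. Without GFPKO replicate 3 they were 0.78 (limma adjusted p = 0.0688) and 0.64 (adjusted p = 0.0669). Gimap1 read 10.28, 10.47 and 10.80 in GFPKO, 10.70, 10.66, 10.85, 10.65 and 10.71 in Treg, and 10.74, 10.57 and 10.52 in TN. The 3 groups overlapped, and the 95% intervals of its log2 fold change ran from -0.17 to 0.38 for Treg minus TN and from -0.40 to 0.21 for GFPKO minus TN.

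Gimap3 is the mouse gene that RefSeq also lists under the older name Gimap5, so the genes were kept apart by their Entrez IDs. It read 10.48, 10.43 and 10.86 in GFPKO, 10.69, 10.65, 10.37, 10.66 and 10.60 in Treg, and 10.16, 10.48 and 10.57 in TN. The groups overlapped, and Treg minus TN was 0.19 ± 0.14 SE (adjusted p = 0.519). Gimap4, reported in rodents to hasten the death of T cells, read 12.57 to 12.99 over all arrays on its brighter probe set, whose suffix marks one that may read several transcripts, and 11.82 to 12.27 on the other. This was the narrowest span of any GIMAP probe set, 0.42 and 0.46 on the log2 scale, and the fold change of Treg minus TN was -0.14 ± 0.11 SE on the first and -0.17 ± 0.12 SE on the second.

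Gimap8, which differs from the rest in carrying several GTP-binding domains, read 11.58, 10.60 and 10.55 in GFPKO, 10.90, 10.58, 10.53, 10.31 and 9.95 in Treg, and 10.85, 10.69 and 10.86 in TN. Its span over all arrays, 1.63, was the widest of the family and reached from GFPKO replicate 1 to Treg replicate 5, with the 3 TN arrays close together between them. GFPKO minus Treg was 0.45 ± 0.23 SE (adjusted p = 0.258), and 0.12 without GFPKO replicate 1. Gimap9 read 9.89, 9.72 and 9.75 in GFPKO, 9.94, 9.60, 9.67, 9.46 and 9.35 in Treg, and 9.89, 9.72 and 9.87 in TN. The groups overlapped, and Treg minus TN was -0.22 ± 0.14 SE (adjusted p = 0.415).

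Over the 8 genes the median log2 fold change was -0.02 in Treg minus TN, against 0.03 over all genes. It was 0.07 in GFPKO minus TN, against -0.04, and 0.17 in GFPKO minus Treg, against -0.08. Treg minus TN had 4 members above 0 and 4 below, from -0.35 for Gimap6 to 0.86 for Gimap7. When each member was subtracted from Gimap7 within an array, the difference was higher in every Treg array than in every TN array for all 7 others, on average by 0.66 (Gimap3) to 1.20 (Gimap6 and Gimap8). Gimap7 was singled out after its values were seen, so these differences carry no test.

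**Figure D3:**
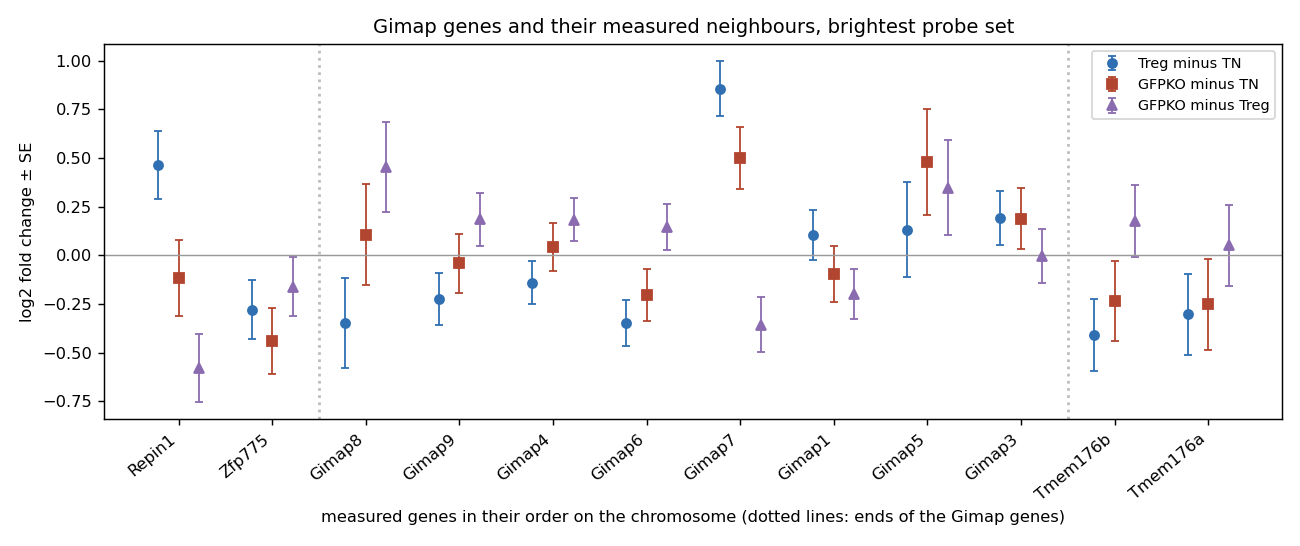
Log2 fold change ± SE (y axis) of the brightest probe set of each GIMAP gene and of 4 measured neighbours (x axis, gene order on the chromosome) in the 3 comparisons. Gimap7 has the highest value in Treg minus TN (0.86), next to Gimap6 at -0.35, and no neighbour outside the family passed the test.

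The protein-coding neighbours of the cluster that were measured did not pass the test. They were Repin1 and Zfp775 beside Gimap8, and Tmem176b and Tmem176a beside Gimap3. Their log2 fold changes ran from -0.58 to 0.46 over the 3 comparisons (lowest limma adjusted p = 0.051, for Repin1 in GFPKO minus Treg). In Treg minus TN the value was 0.46 ± 0.17 SE for Repin1 (adjusted p = 0.130) and -0.41 ± 0.18 SE for Tmem176b (adjusted p = 0.229).

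Gimap5, Gimap7 and Gimap8 varied enough over the arrays, with an SD of at least 0.3, to look for genes of like profile among 9089 others at or above the median level. Likeness was the root mean square difference of the log2 values over the 11 arrays after each gene was centred, so it reads arrays and groups together. Closest to Gimap7, whose SD was 0.41, were Sdhaf1 (0.139), an assembly factor of mitochondrial complex II, and Wdr6 (0.144). Sdhaf1 averaged 9.84 in GFPKO, 10.28 in Treg and 9.40 in TN, and Wdr6 10.44, 10.75 and 9.91 in the same order. These levels belong to different probe sets and are not set against each other. Their log2 fold changes of Treg minus TN, 0.88 and 0.84, are near that of Gimap7 by the way the genes were chosen and carry no test. Closest to Gimap8, with an SD of 0.41, were Lrrfip1 (0.0715) and Mycbp2 (0.0811), and closest to Gimap5, with an SD of 0.42, were Cfp, the complement factor properdin (0.156), and Mpp5 (0.157). GFPKO replicate 1 was the highest array for each of these 4, as for Gimap5 and Gimap8, which the choice by likeness likewise fixes in large part.

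**Figure D4:**
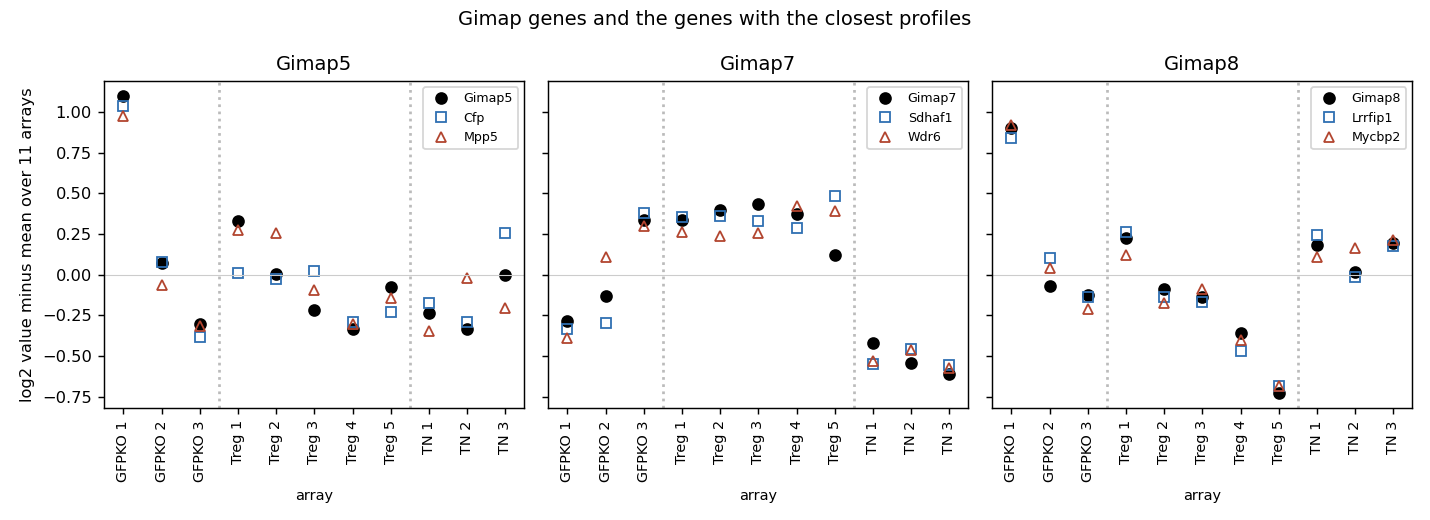
Log2 value minus the gene's mean over 11 arrays (y axis) on each array (x axis, GFPKO, Treg and TN from left to right) for Gimap5, Gimap7 and Gimap8 with the 2 genes of closest profile. Gimap7, Sdhaf1 and Wdr6 are below 0 on every TN array and above 0 on every Treg array, and Gimap8 with Lrrfip1 and Mycbp2 is highest on GFPKO replicate 1 and lowest on Treg replicate 5.

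Genes of pathways in which GIMAP proteins are placed were read by their brightest probe sets, and their other probe sets were not compared here. Of 14 autophagy genes, which build and load Atg8 proteins on membranes, 1 rose and 1 fell in Treg minus TN, with a median log2 fold change of -0.04 against 0.03 over all genes. Of all genes 6.54% were called higher and 3.42% lower in that comparison. Gabarapl1, an Atg8 protein, averaged 6.32 in GFPKO, 7.42 in Treg and 5.45 in TN. It was higher in Treg than in TN by 1.98 ± 0.15 SE (adjusted p = 2.95e-07), higher in GFPKO than in TN by 0.88 ± 0.17 SE (adjusted p = 0.0054), and its GFPKO minus Treg value was -1.10 ± 0.15 SE (adjusted p = 3.16e-04). Atg3, the enzyme that joins Atg8 proteins to lipid, fell by 0.45 in Treg minus TN (adjusted p = 0.0487). No other autophagy gene was called in the 3 comparisons, the other Atg8 genes Gabarap, Gabarapl2, Map1lc3a and Map1lc3b included. Gabarapl2 had log2 fold changes of -0.08 in Treg minus TN, -0.38 in GFPKO minus TN and -0.30 in GFPKO minus Treg. A link between Gimap6 and any of these Atg8 genes was not tested.

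Other immune GTPases were compared as well. Of 10 measured genes of the IRG, GBP and Mx families, which are induced by interferons, 6 rose and none fell in Treg minus TN (median 0.55 against 0.03 over all genes). In GFPKO minus TN 6 rose and none fell (median 0.72 against -0.04), and in GFPKO minus Treg 3 rose and 1 fell (median 0.39 against -0.08). Of all genes 6.54%, 2.64% and 2.55% were called higher in these 3 comparisons, and 3.42%, 3.02% and 6.88% lower. Gbp3, a guanylate-binding protein, averaged 7.58 in GFPKO, 8.72 in Treg and 6.04 in TN, and the log2 fold change was 2.68 ± 0.24 SE for Treg minus TN and 1.54 ± 0.27 SE for GFPKO minus TN. Iigp1 rose by 0.96 in Treg minus TN. Mx1, an antiviral GTPase, was highest in GFPKO, by 2.16 over TN and 1.26 over Treg, and Gbp6 was higher in GFPKO than in Treg by 0.77.

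Of 10 measured genes of the BCL2 family, whose members promote or block cell death, 3 rose and none fell in Treg minus TN (median 0.38), led by Bcl2l1 (1.24), which blocks death, and Pmaip1 (1.22), which promotes it. In GFPKO minus TN 2 rose and none fell (median 0.14): Bcl2, which blocks death, by 1.18 and Bcl2l11, which promotes it, by 1.13. In GFPKO minus Treg 1 rose, Bcl2l11 by 0.92, and 4 fell (median -0.53), among them Bid (-1.07) and Bcl2l1 (-1.01). Of 13 measured genes of Foxo factors, quiescence and survival none rose and 3 fell in Treg minus TN (median -0.24), including Il7r, the interleukin 7 receptor chain (-2.08), and Lef1 (-1.28). In GFPKO minus TN none rose and 3 fell, among them Btg2 (-1.78), an antiproliferative gene, and Il7r (-1.62), although the list's median was 0.16. In GFPKO minus Treg 4 rose and 1 fell (median 0.40), with S1pr1 (1.19) and Lef1 (0.79) higher and Btg2 (-1.44) lower. Over all genes the median was 0.03 in Treg minus TN, where 6.54% were called higher and 3.42% lower. It was -0.04 in GFPKO minus TN (2.64% higher and 3.02% lower) and -0.08 in GFPKO minus Treg (2.55% higher and 6.88% lower).

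Among 12 T cell transcription factors 1 rose and 3 fell in Treg minus TN (median -0.17), with Gata3 (0.78) higher and Satb1 (-1.56) and Ikzf1 (-1.10) lower. In GFPKO minus TN none rose and 2 fell (median 0.15): Tbx21, the factor of Th1 cells, by 1.63 and Runx3 by 1.06 on the log2 scale. In GFPKO minus Treg 4 rose and 1 fell (median 0.22), with Satb1 (1.01) and Ikzf1 (0.75) higher and Tbx21 (-1.67) lower. Over all genes the medians in the same order of comparisons were 0.03, -0.04 and -0.08. The shares called were 6.54% higher and 3.42% lower, 2.64% and 3.02%, and 2.55% and 6.88%.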

How the data were processed

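RNA of sorted mouse CD4 T cells was labelled with biotin and hybridised to Affymetrix arrays, per the labels. The deposited values are log2 expression per probe set, made by the authors with RMA, per the submitters' processing notes; its version is not given in the sources used here. The log2 scale was read from the values (1.54 to 14.65, array medians 4.07 to 4.16). Of 45101 probe sets, 34945 had 1 gene symbol, giving 18193 genes, each represented by the probe set brightest on average. The 64 control probe sets, 932 with several symbols and 9211 not in the gene table were left out. These groups overlap, since control probe sets are also among those not in the gene table.

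With limma 3.58.1 (R 4.3.3) a mean per group was fitted jointly to the 11 arrays, without covariates. Tests were two-sided, with Benjamini-Hochberg adjustment over all genes (or all probe sets for second probe sets) and a threshold of 0.05. Errors of fold changes are SE from limma. On simulated data a log2 change of 1 in 200 of 18193 genes was called in 81.5% of them (Treg minus TN), 86% (GFPKO minus TN) and 85% (GFPKO minus Treg), and in that order 3 of 166, 21 of 193 and 18 of 188 calls had no change added. The noise was drawn once per comparison, independently for each gene, with 1 SD per gene for all groups. On the real arrays groups can differ in spread and genes share arrays, so these shares check the fit and do not give its power here. The members and lists were chosen with earlier results of these data known. Named are all members, up to 2 called list genes per direction and comparison by size, markers that move with a member, and the 2 closest profiles. Tmem176b, Tmem176a, Repin1, Zfp775 and the motifs were chosen after values were seen. The number of arrays limits the precision. Alternatives were a replicate block, the compared groups alone, each array left out, a filter on dim genes, averaged probe sets, median centring, an intensity trend with robust variance and, chosen after seeing the data, the actin difference as a covariate.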

Additional observations from a re-analysis of the deposited data

How the results depend on the processing

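Of 534 combinations of a GIMAP gene or the second Gimap6 or Gimap7 probe set, a comparison and 1 of 18 alternatives, 505 kept their direction and their side of the threshold, 8 became called, 4 lost their call and 17 changed sign, none of them called. The second Gimap4 probe set was not run. Gimap7 in Treg minus TN was called under all 18 (0.81 to 0.92), and the second Gimap6 probe set in Treg minus TN and GFPKO minus Treg under all 17 run on it. The number of members called in Treg minus TN was 2 with averaged probe sets and 2 with an intensity trend. In GFPKO minus TN it was 1 with averaged probe sets, 1 with an intensity trend, 1 with the actin covariate and 0 to 1 with an array left out. In GFPKO minus Treg it was 1 with averaged probe sets and 0 to 1 with an array left out. Over all genes, GFPKO minus TN called 562 in a fit of both groups alone, 570 with the actin covariate (341 higher and 229 lower, against 480 and 549) and 644 (without TN replicate 1) to 1868 (without GFPKO replicate 3) with an array left out. GFPKO minus Treg called 1716, against 1049 with the replicate block, 811 with the actin covariate, and 1134 to 3421 with an array left out (without GFPKO replicates 1 and 3). With the actin covariate sign changes in GFPKO minus TN were Gimap1 (0.13), Gimap8 (-0.13) and the second Gimap6 probe set (0.088), and in GFPKO minus Treg Gimap3 (0.036), which was 0.017 with the replicate block. With an array left out, GFPKO minus TN ran from -0.24 to 0.0245 for Gimap1, -0.0115 to 0.10 for Gimap4, -0.23 to 0.29 for Gimap8 and -0.15 to 0.23 for the second Gimap6 probe set. GFPKO minus Treg ran from -0.14 to 0.073 for Gimap3, -0.057 to 0.64 for Gimap5 and -0.35 to 0.048 for the second Gimap7 probe set. The causes were not tested. The replicate numbers were not taken as pairs, since the deviations of same-numbered arrays correlated above 0.1 in 4 of 9 pairs (-0.30 to 0.62). The block, over 9 arrays, moved no other count by more than 1.5 times.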

Other observations

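Some GIMAP genes moved together between arrays of a group, and others did not. Among the 5 Treg arrays, replicate 1 was the highest for 8 of 11 GIMAP probe sets, against 26.7% of all genes with a mean above background, and replicate 5 was the lowest for 6 of 11, against 22.8%. Replicate 5 was the highest for none of them, against 32.4% of all genes. In GFPKO, replicate 2 was the lowest for 6 of 11 and the highest for none, while 16.3% of all genes were lowest and 23.4% highest there. After the group means were removed, Gimap4 (brighter probe set) had a Pearson correlation over the 11 arrays of 0.86 with Gimap8, 0.83 with Gimap9 and 0.78 with the brighter Gimap6 probe set. Gimap7 correlated at 0.85 with Gimap1 and at -0.70 with Gimap5. Without GFPKO replicate 1 these values were 0.84, 0.84, 0.82, 0.79 and -0.56. Gimap1 correlated at -0.75 with Gimap5, -0.49 with Gimap8 and -0.082 with Gimap4, and Gimap3 at -0.022 with Gimap4, -0.20 with Gimap8 and -0.073 with Gimap9. Without GFPKO replicate 1 the Gimap1 correlations were -0.59, -0.20 and 0.24, and the Gimap3 correlations 0.091, -0.071 and -0.025. They are descriptions: the probe sets share the arrays and their normalization, and the genes were not chosen independently of their neighbours.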
